A study of Homo sapiens with 8 samples.

Results

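The genes described here were 10 genes of the TGF-beta and BMP signalling pathways, taken by name from among 19974 protein-coding genes: the ligands TGFB1, TGFB2, TGFB3 and BMP7, the receptors TGFBR1 and TGFBR2, the signal transducer SMAD3, the inhibitory SMAD6 and SMAD7, and the secreted protein TGFBI. They were not selected by a measured value, but earlier results of these data were known when they were chosen. The data were ChIP-seq peak lists for HP1a and HP1b in MCF10A, an established line of human breast epithelium that does not form tumours. HP1a and HP1b are related proteins that bind the methylated histone tails of heterochromatin, the compact and mostly silent part of the genome. There were 4 groups of 2 libraries: HP1a ChIP in wild-type (WT) cells, HP1a ChIP in cells with HP1b knocked down, HP1b ChIP in WT cells, and HP1b ChIP in cells with HP1a knocked down. The labels record no treatment of the WT cells, and the sources used here do not give the means of knockdown or the number of clones. The libraries of a group are labelled replicates 1 and 2 and are not stated to be separate cultures, so every p value measures only the spread between these libraries, which may be technical. Peak lists cannot show how far the target was depleted or whether the cells were of the labelled type.

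TGF-beta and BMP ligands are secreted proteins that bring type I and type II receptor kinases together at the cell surface. The activated receptors phosphorylate SMAD proteins, which move to the nucleus and regulate transcription, and the inhibitory SMADs limit this signal as feedback. In breast epithelium TGF-beta is known for arresting growth and for driving the epithelial-to-mesenchymal transition. The study's title sets loss of HP1a against TGF-beta activation in genome folding, so the pathway's own genes bear on its subject.

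The lists differed greatly in length. WT libraries held 134058 and 115564 peaks of HP1a and 239563 and 240090 of HP1b. The HP1a lists of the HP1b knockdown held 19638 and 19092, and the HP1b lists of the HP1a knockdown 159536 and 225991. The weakest listed peak had a −log10 p of 3.43 in both HP1a lists of the knockdown and of 2.75 and 2.80 in the WT lists, and the part of this difference in the results was not tested. Read depth is unknown. A gene without a peak is one where none was listed, which does not show that the protein was absent.

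The RefSeq promoter table (GRCh38.p14) gave 24 windows for 9 of the 10 genes, each from 250 bases before to 50 bases after a transcription start. Only 1 of them, at an internal start of SMAD3, met a peak, and that in only 1 library, WT HP1b replicate 2. Over all genes, between 0.415 and 5.45% of such windows met a peak, depending on the library, so that a single window of 24 is near the general share. Of the sequences below, those of SMAD3 are shown because they set the window with a peak beside the gene's main start without one, and that of TGFB2 because its gene body had the highest mean coverage of the 10. They were chosen after the peak values were seen. CpG pairs, the sites of DNA methylation, are in capitals.

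TGFB2 start, chr1:218345086-218345385, plus strand: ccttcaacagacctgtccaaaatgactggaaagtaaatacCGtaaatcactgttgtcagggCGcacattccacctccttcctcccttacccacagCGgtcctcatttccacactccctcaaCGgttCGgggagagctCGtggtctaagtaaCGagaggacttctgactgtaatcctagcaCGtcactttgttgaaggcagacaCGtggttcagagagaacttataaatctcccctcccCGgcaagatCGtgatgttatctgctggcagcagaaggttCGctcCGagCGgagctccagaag

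SMAD3 main start, chr15:67065352-67065651, plus strand: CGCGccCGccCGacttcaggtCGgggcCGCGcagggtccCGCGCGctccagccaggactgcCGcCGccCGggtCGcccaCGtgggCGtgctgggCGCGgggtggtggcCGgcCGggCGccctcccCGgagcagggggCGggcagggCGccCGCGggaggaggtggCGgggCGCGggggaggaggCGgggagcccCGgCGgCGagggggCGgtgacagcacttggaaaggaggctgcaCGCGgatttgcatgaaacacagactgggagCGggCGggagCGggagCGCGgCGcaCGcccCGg

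SMAD3 internal start, chr15:67137771-67138070, plus strand: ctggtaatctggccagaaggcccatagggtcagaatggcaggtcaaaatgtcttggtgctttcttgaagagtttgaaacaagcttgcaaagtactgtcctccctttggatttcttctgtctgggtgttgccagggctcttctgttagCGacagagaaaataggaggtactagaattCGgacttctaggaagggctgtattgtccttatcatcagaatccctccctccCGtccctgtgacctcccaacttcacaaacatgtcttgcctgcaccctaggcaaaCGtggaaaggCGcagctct

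The main SMAD3 window held 44 CpG pairs at a GC content of 80.3%, the internal one 5 at 49.3%, and the TGFB2 window 14 at 51.7%. The median over 34961 windows was 14 CpG pairs and 58.7% GC. The SMAD3 peak at the internal start ran from 67137887 to 67138979 on chromosome 15 with a deposited fold of 3.13. It was met by no peak of any other library.

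Coverage is given as the percentage of a gene's bases, with 1 kb added on each side, that lay inside listed peaks. Over all 10 genes together it was 4.14 and 3.48% in the 2 WT HP1a libraries, and 0.170 and 0.0956% in the HP1a libraries of the HP1b knockdown. WT HP1b covered 7.56 and 8.32%, and HP1b in the HP1a knockdown 0.864 and 2.21%. Pooled in this way, the 10 genes were covered more than protein-coding genes as a whole in both WT groups, and less in both knockdown groups. All protein-coding genes stood at 2.25 and 1.83%, 0.310 and 0.284%, 4.63 and 4.84%, and 3.11 and 4.71% in the same order. TGFB2 alone held 14209 of the 28154 and 10830 of the 23680 bases covered in WT HP1a. The median of the 10 genes was 2.81 and 1.09% in WT HP1a and 4.49 and 4.18% in WT HP1b. It was above the pooled value for all genes only in WT HP1a replicate 1. That pooled value is not a median over genes, so the 2 are unlike measures and do not place the typical gene of the 10. In WT HP1a replicate 2 only 48.4% of all genes had a peak, so the median over all genes was below that of the 10. From WT to knockdown, mean coverage of the 10 genes was 28.7-fold lower for HP1a, where all genes were 6.87-fold lower. For HP1b it was 5.17-fold lower, where all genes were 1.21-fold lower. Genes within the 10 genes' range of lengths went from 2.26 and 1.71% to 0.297 and 0.257% for HP1a. For HP1b they went from 4.33 and 4.72% to 2.30 and 3.998%. The number of peaks over the 10 genes went from 50 and 42 to 2 and 1 for HP1a, and from 77 and 83 to 10 and 26 for HP1b.

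**Figure D1:**
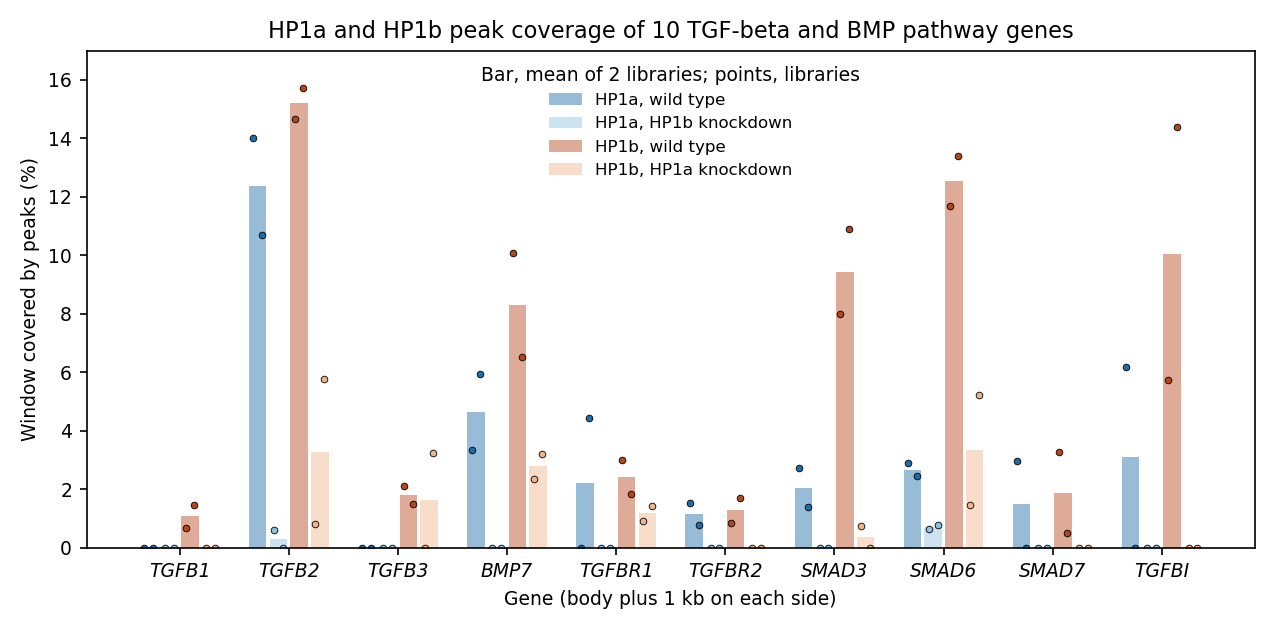
Percentage of each gene, with 1 kb on each side, inside listed peaks, in the 4 groups; bars are means of 2 libraries and points the libraries. TGFB2 was the most covered gene in WT HP1a replicates 1 and 2, at 14.0 and 10.7%, and most genes were at or near 0 in the HP1a libraries of the knockdown.

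Scaling by total coverage leaves a deficit in the knockdown lists. As bases per Mb of everything the library's own peaks covered, called relative coverage from here on, the 10 genes held 403 and 392 in WT HP1a and 117 and 67.1 in the HP1b knockdown. They held 325 and 360 in WT HP1b and 49.6 and 91.0 in the HP1a knockdown. The ratio of knockdown to WT was 0.231 ± 0.0882 for HP1a and 0.205 ± 0.0868 for HP1b (SD propagated from 2 knockdown and 2 WT libraries). The libraries of the groups did not overlap in either case. Among peaks with a −log10 p of at least 4 the HP1a ratio was 0.499, and the groups overlapped, at 96.8 and 138.1 in the knockdown and 352.4 and 118.6 in WT. Among peaks with a −log10 q of at least 2 the HP1b groups overlapped, at 17.8 and 125.2 in the knockdown and 44.4 and 499 in WT. An exact permutation test of 2 against 2 libraries cannot give a two-sided p below 0.333.

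The ligands differed widely. TGFB2 (chr1:218345336-218444619, plus strand), a TGF-beta ligand, was covered at 14.0 and 10.7% by WT HP1a, 0.615 and 0% by HP1a in the knockdown, 14.7 and 15.7% by WT HP1b, and 0.806 and 5.77% by HP1b in the knockdown. It had 21 and 18 HP1a peaks and 19 and 18 HP1b peaks in WT cells, against 1 and 0, and 3 and 10, in the knockdowns. Both WT groups were above both knockdown groups without overlap. BMP7 (chr20:57168753-57266641), a BMP ligand of epithelia and kidney, was covered at 3.34 and 5.96%, 0 and 0%, 10.1 and 6.51%, and 2.36 and 3.22% in the same group order. BMP7 was thus listed without an HP1a peak in both libraries of the knockdown and kept HP1b peaks in all 4 HP1b libraries.

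TGFB1 and TGFB3 were sparsely covered. TGFB1 (chr19:41330323-41353922, minus strand), the most widely expressed TGF-beta ligand, had no peak outside WT HP1b, where 0.695 and 1.46% was covered. TGFB3 (chr14:75958097-75983011, minus strand), known for its part in palate closure, had no HP1a peak. Its HP1b coverage was 2.11 and 1.51% in WT and 0 and 3.25% in the knockdown, so that its groups overlapped.

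Among the receptors, TGFBR2 (chr3:30606356-30694142, plus strand), the type II receptor that binds the ligand, was covered at 1.53 and 0.782% by WT HP1a and 0.856 and 1.71% by WT HP1b. No knockdown library listed a peak in it. TGFBR1 (chr9:99103647-99154192, plus strand), the type I receptor kinase, was at 0 and 4.45% with WT HP1a and 0 and 0% in the HP1b knockdown. Its HP1b coverage was 3.01 and 1.86% in WT and 0.919 and 1.43% in the HP1a knockdown. The WT HP1a replicates therefore disagreed at TGFBR1. The peak of highest deposited fold over all 10 genes, 4.25, lay in TGFBR1 (chr9:99129564-99129734) in replicate 2 of HP1b in the HP1a knockdown. No other library listed a peak that met it.

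SMAD3 (chr15:67065602-67195169, plus strand), which carries the TGF-beta signal to DNA, was covered at 2.72 and 1.40% by WT HP1a and 0 and 0% by HP1a in the HP1b knockdown. WT HP1b covered 7.99 and 10.9% of it in 17 and 20 peaks, and HP1b in the HP1a knockdown 0.761 and 0% in 1 and 0 peaks. The inhibitory SMAD6 (chr15:66702236-66782849, plus strand), which mainly restrains BMP signals, lies on the same chromosome arm. It was covered at 2.91 and 2.45%, 0.642 and 0.787%, 11.7 and 13.4%, and 1.47 and 5.23% in the group order used above. SMAD6 was the only gene of the 10 with an HP1a peak in both libraries of the HP1b knockdown, where 9.59% of all genes and 9.78% of those within the 10 genes' range of lengths had one, but these single peaks lay at different places, 34.0 and 51.2 kb from the gene start. SMAD7 (chr18:48919853-48950965, minus strand), the inhibitory SMAD best known for acting on TGF-beta receptors, was at 2.97 and 0% with WT HP1a, 3.26 and 0.519% with WT HP1b, and 0 in all 4 knockdown libraries.

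TGFBI (chr5:136028988-136063818, plus strand), an extracellular matrix protein induced by TGF-beta, was at 6.19 and 0% with WT HP1a and 5.72 and 14.4% with WT HP1b. No knockdown library listed a peak in TGFBI. The WT HP1a libraries disagreed at TGFBI too, and in the opposite sense to TGFBR1.

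With HP1b knocked down, HP1a relative coverage of SMAD3, BMP7 and TGFBR2 passed the adjusted threshold as lower, 3 of the 5 genes that could be fitted, which needed a listed peak in 2 or more of the 4 libraries. Among all 8878 genes fitted, 26.9% passed as lower and 1.7% as higher. The limma log2 changes were −2.82 (SE 0.47, adjusted p = 0.0332) for SMAD3, −3.53 (SE 0.60, adjusted p = 0.0335) for BMP7 and −1.74 (SE 0.30, adjusted p = 0.0340) for TGFBR2. All 3 were listed at 0 in both knockdown libraries, as were 98.4% of the 2385 genes that passed as lower. They entered the fit through the WT libraries alone, so a lower value was the only outcome open to them and their number supports nothing. The size of these changes depends on the pseudocount and is no bound. TGFB2 had unequal knockdown replicates and stood at −3.21 (SE 1.39, adjusted p = 0.192). SMAD6 stood at 0.72 (SE 0.50, adjusted p = 0.399), and at −1.56 without scaling by total coverage. TGFB1, TGFB3, TGFBR1, SMAD7 and TGFBI had HP1a peaks in fewer than 2 of these libraries and were not fitted. No gene of the 10 passed when each library was cut to the same number of peaks, when peaks of −log10 p under 4 were left out, when genes were not filtered, when the pseudocount was multiplied by 4, or when either WT library was left out. Leaving out knockdown replicate 1 or 2 took TGFB2 past the threshold, at −5.05 or −1.51, and took TGFBR2 off it.

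By presence alone, SMAD3, BMP7 and TGFBR2 had an HP1a peak in both WT libraries and in neither knockdown library. These were 3 of the 5 genes with a peak in both WT libraries, against 47% of all genes with such peaks and 54% of those within the range of lengths of the 10 genes. SMAD6 had a peak in all 4 libraries, as did 21.7% of all such genes. At SMAD3, BMP7, TGFBR2 and SMAD6 no HP1a peak of either WT library met a peak of the other. Presence here is thus of the gene and not of a shared site. None of the 10 gained a peak in both knockdown libraries that both WT libraries lacked, as did 0.27% of all genes. The count of 3 became 1 with the same number of peaks in each library and 5 without WT replicate 2, and SMAD6 was joined by TGFB2 without knockdown replicate 2.

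With HP1a knocked down, no gene passed the adjusted threshold for HP1b, whether among the 10 or among all 13101 tested (limma, background 0%). At an unadjusted p under 0.05, 6 of the 10 were lower, against 19.8% of all genes, and none was higher, against 4.98%. TGFBR2 and TGFBI, at 0 in each knockdown library, could only be lower, so this count is not read as support. The 6 were SMAD3 at −3.98 (SE 0.82, adjusted p = 0.147), TGFBI at −3.31 (SE 0.73), TGFB2 at −2.41 (SE 0.70), TGFBR2 at −1.97 (SE 0.54), SMAD6 at −1.84 (SE 0.49) and BMP7 at −1.28 (SE 0.37), all with that adjusted p. The remaining changes were −1.24 (SE 0.57) for SMAD7, −0.78 (SE 0.31) for TGFB1, −0.62 (SE 0.65) for TGFBR1 and −0.34 (SE 0.73) for TGFB3. SMAD7 and TGFB1, too, were listed at 0 in the knockdown and could only be lower. At TGFB3 the groups overlapped. Several genes passed the threshold when 1 library was left out: 3 without replicate 1 of the knockdown, 5 without replicate 2 of it, 2 without WT replicate 1 and 1 without WT replicate 2. The lone library left in a group is then assumed to vary like the others, and the counts over all genes moved too, to between 75 and 1794.

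**Figure D2:**
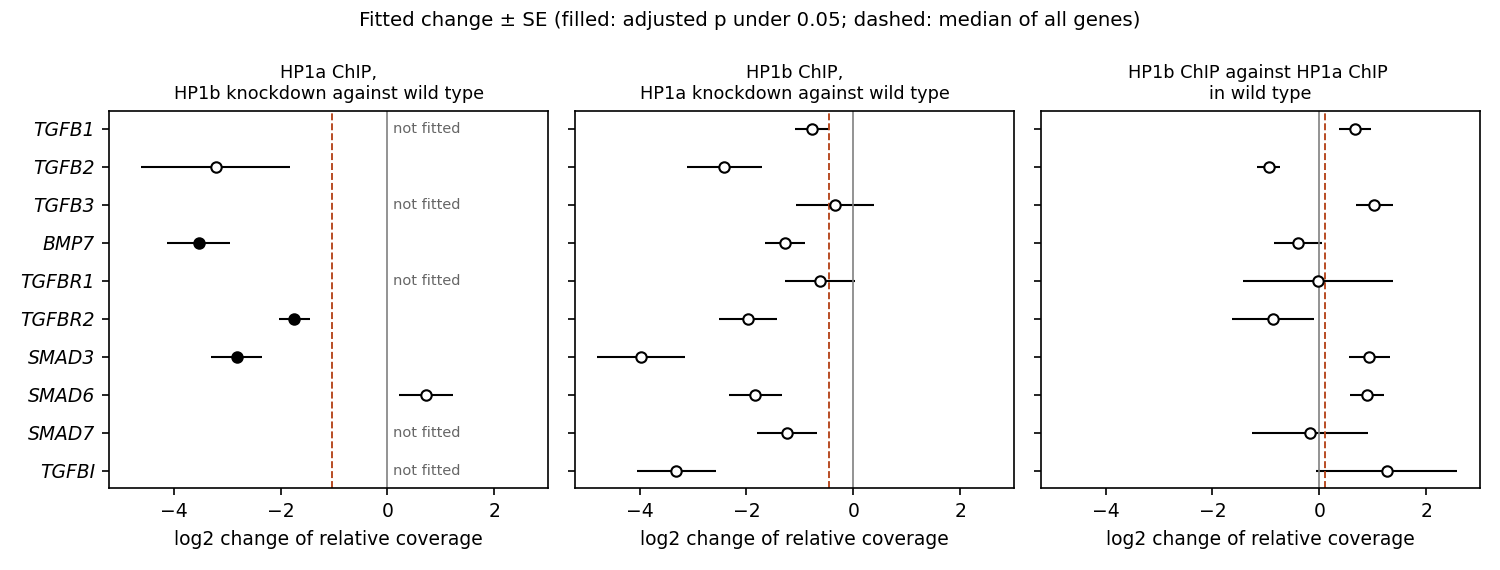
Limma log2 change in relative coverage with its standard error for each gene tested, in the HP1a, HP1b and WT comparisons; filled points passed the adjusted threshold, and the dashed line is the median of all genes. SMAD3, BMP7 and TGFBR2 passed the adjusted threshold for HP1a, and for HP1b the lowest value was that of SMAD3 at −3.98. TGFB1, TGFBR2, SMAD7 and TGFBI were listed at 0 in both HP1b knockdown libraries, so their side of 0 was fixed.

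SMAD7, TGFB1, TGFBR2 and TGFBI, 4 of the 10 genes with an HP1b peak in both WT libraries, had none in the HP1a knockdown. Over all genes with such peaks the share was 14.2%, and 11.5% among those within the 10 genes' range of lengths. At SMAD7 and TGFB1 the peaks of the WT HP1b replicates did not meet each other. TGFB2, SMAD6, BMP7 and TGFBR1 had HP1b peaks in all 4 libraries, which is 4 of 10 against 63.6% of all such genes. These 4 were also all of the 10 with an HP1b peak in both knockdown libraries, against 39.3% of all genes and 52.9% of genes within the same lengths. None of the 10 gained HP1b peaks, as did 1.03% of all genes. SMAD3 and TGFB3 each had an HP1b peak in 1 of the 2 knockdown libraries.

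On average the DNA around these genes, compared here without a test, kept more of its HP1b coverage than the genes did, with TGFB3 as an exception. In the 500 kb on each side of TGFB2, WT HP1b covered 6.97 and 6.70% and HP1b in the HP1a knockdown 6.93 and 9.37%, while the gene itself went from 14.7 and 15.7% to 0.806 and 5.77%. TGFB2 thus stood above its surroundings in both WT HP1b libraries and below them in both knockdown libraries. For SMAD3 the flanks went from 6.60 and 7.92% to 1.75 and 4.88%. SMAD6 had flanks at 7.16 and 8.14% in WT and 1.61 and 4.01% in the knockdown. SMAD3 and SMAD6 lie wholly within each other's 500 kb flanks. The flanks of each thus hold the other gene, whose HP1b coverage was also lower in the knockdown. TGFBI flanks went from 11.7 and 12.6% to 3.85 and 7.21%, and those of TGFBR2 from 5.46 and 6.58% to 4.89 and 4.47%. At TGFB3 the gene had a mean of 1.81% in WT and 1.63% in the knockdown, and its flanks 5.22 and 3.78%. Averaged over the 10 genes, the gene windows went from 6.01 and 6.80% to 0.632 and 1.89%, and the flanks from 6.90 and 7.61% to 3.03 and 5.50%. All protein-coding genes, pooled, went from 4.63 and 4.84% to 3.11 and 4.71%, a smaller fall than that of these flanks. No mean is given for the flanks of all genes. In WT HP1b, 3 genes (SMAD3, SMAD6 and TGFB2) were above their flank in both libraries and 5 below, where 15.3% of all genes were above and 61.7% below. In the HP1a knockdown 8 were below and none above, where 70.3% of all genes were below and 12.2% above. Most genes thus lay below their flanks in these lists, and nothing particular to the 10 is read from these counts. With HP1a, only TGFB2 was above its flank in both WT libraries and only SMAD6 in both knockdown libraries, the latter not with flanks of 100 kb. Of all genes, 12% were above in WT HP1a and 4.72% in the knockdown.

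**Figure D3:**
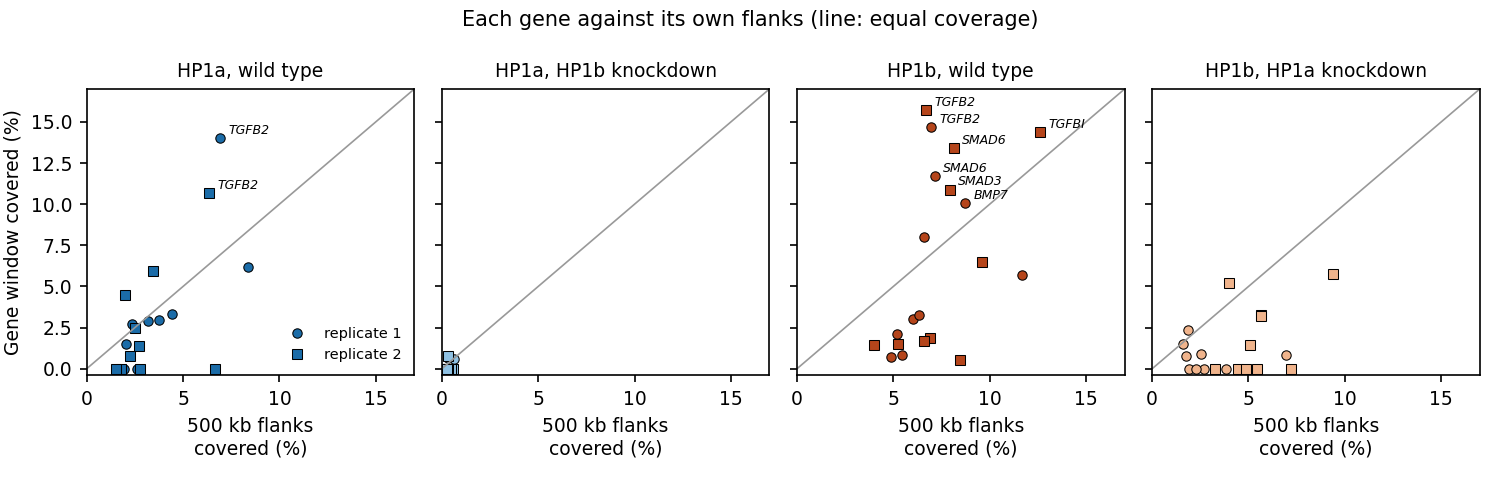
Coverage of each gene window against coverage of the 500 kb on each side of it, in percent of bases, with a line of equal coverage; circles are replicate 1 and squares replicate 2, in 1 panel for each group. TGFB2 lay above the line in both WT HP1b libraries and below it in both HP1b libraries of the HP1a knockdown, where its flanks were at 6.93 and 9.37%.

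The difference between the knockdown effects was tested in a fit of all 8 libraries, and no gene passed among the 10 or among 14465 (background 0%). At an unadjusted p under 0.05, 1 of the 10 (BMP7) lay above 0, meaning a smaller loss or larger gain of HP1b than of HP1a, against 11.7% of all genes, and 1 (SMAD6) below, against 4.61%. BMP7 lay above 0 at 3.37 (SE 0.85, limma adjusted p = 0.141) and SMAD6 below it at −2.58 (SE 0.78, limma adjusted p = 0.182). HP1a of BMP7 was listed at 0 in both libraries of the HP1b knockdown, so its HP1a change could only be a fall. A fall of HP1a raises the difference, whose size depends on the pseudocount. BMP7 passed, at 3.41, without replicate 2 of HP1a in the HP1b knockdown. The others stood at 1.44 (SE 2.05) for TGFB2, 1.34 (SE 1.70) for TGFBR1, 0.87 (SE 0.75) for TGFBR2, 0.17 (SE 1.22) for SMAD7, 0.06 (SE 1.13) for SMAD3, −0.29 (SE 0.71) for TGFB3, −0.67 (SE 0.31) for TGFB1 and −1.27 (SE 1.66) for TGFBI, with an adjusted p between 0.359 and 0.991. TGFB1 had peaks in WT HP1b alone, so its value could only lie below 0. For none of the 10 genes was a different response to the 2 knockdowns shown with all 8 libraries.

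In WT cells all 10 genes had an HP1b peak in both libraries, against 55.6% of all genes and 78.2% of genes within their range of lengths. HP1a had peaks in both libraries at 5 of them (TGFB2, SMAD6, SMAD3, BMP7 and TGFBR2), against 39.8% and 57.7%. Peaks of the HP1b replicates did not meet each other at TGFB1, TGFB3 and SMAD7, and those of the HP1a replicates met only at TGFB2. This comparison uses the same WT libraries as the knockdown comparisons. No gene differed in relative coverage at the adjusted threshold among the 10 or among 13090 (limma, background 0%), and at an unadjusted p under 0.05, 8.62% of all genes were higher with HP1b and 3.91% lower. TGFB2 had the lowest p of the 10: HP1b was below HP1a by a log2 of −0.95 (SE 0.22, limma adjusted p = 0.369), and without scaling it was above by 0.29. Both HP1b libraries were above both HP1a libraries at TGFB1, TGFB3, SMAD3 and SMAD6, 4 of 10 against 24.5% of all genes. TGFB1 and TGFB3 were listed at 0 in both HP1a libraries and could only be higher. Changes were 1.03 (SE 0.35) for TGFB3, 0.93 (SE 0.38) for SMAD3, 0.90 (SE 0.32) for SMAD6 and 0.66 (SE 0.30) for TGFB1. Both were below at TGFB2 and TGFBR2, 2 of 10 against 16.5%, and for both of these the sign turned without scaling. BMP7, TGFBR1, SMAD7 and TGFBI had overlapping groups. Leaving out WT HP1a replicate 2 took TGFB2 past the threshold, at −1.04, and leaving out WT HP1a replicate 1 took TGFBI past it, at 3.05. Without scaling, the median over all genes moved by −1.22 in the HP1a comparison and by 0.88 in this one.

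Of the peaks in the 10 genes, 22 and 21.4% of those of WT HP1a met a peak of the other replicate, 35.1 and 31.3% of those of WT HP1b, and 20 and 7.69% of those of HP1b in the knockdown. None of the 3 HP1a peaks of the HP1b knockdown did. For peaks in all protein-coding genes the shares were 16.4 and 20.03%, 31.9 and 30.6%, and 47.7 and 29.99%, and 5.96 and 6.38% for HP1a in the knockdown. All 11 regions listed in both WT HP1a libraries lay in TGFB2 and were 74 to 1088 bases long. WT HP1b gave 27 shared regions in 7 genes: 10 in TGFB2, 6 in SMAD3, 3 each in BMP7 and SMAD6, 2 each in TGFBR1 and TGFBI, and 1 in TGFBR2. HP1b in the HP1a knockdown gave 2, both in TGFB2, at chr1:218411363-218411649 and chr1:218418139-218418281.

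TGFB2 also held the widest shared region, 2367 bases of WT HP1b at chr1:218416853-218419219, centred 72.7 kb from the gene start. It was met by both WT HP1a libraries, by 1 HP1a library of the HP1b knockdown and by both HP1b libraries of the HP1a knockdown. In SMAD6 the widest was chr15:66754160-66755864, at 1705 bases. Of the 27 WT HP1b regions, 33.3% were met by HP1b in the HP1a knockdown, against 54.2% of 30893 such regions over all genes, and none of the 6 in SMAD3 was. WT HP1a met 51.9% of the 27, against 38.5% over all genes. Of the 11 WT HP1a regions of TGFB2, 81.8% were met by WT HP1b (64.8% over all genes), 9.09% by HP1a in the HP1b knockdown (7.98%) and 27.3% by HP1b in the HP1a knockdown (49.5%).

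**Figure D4:**
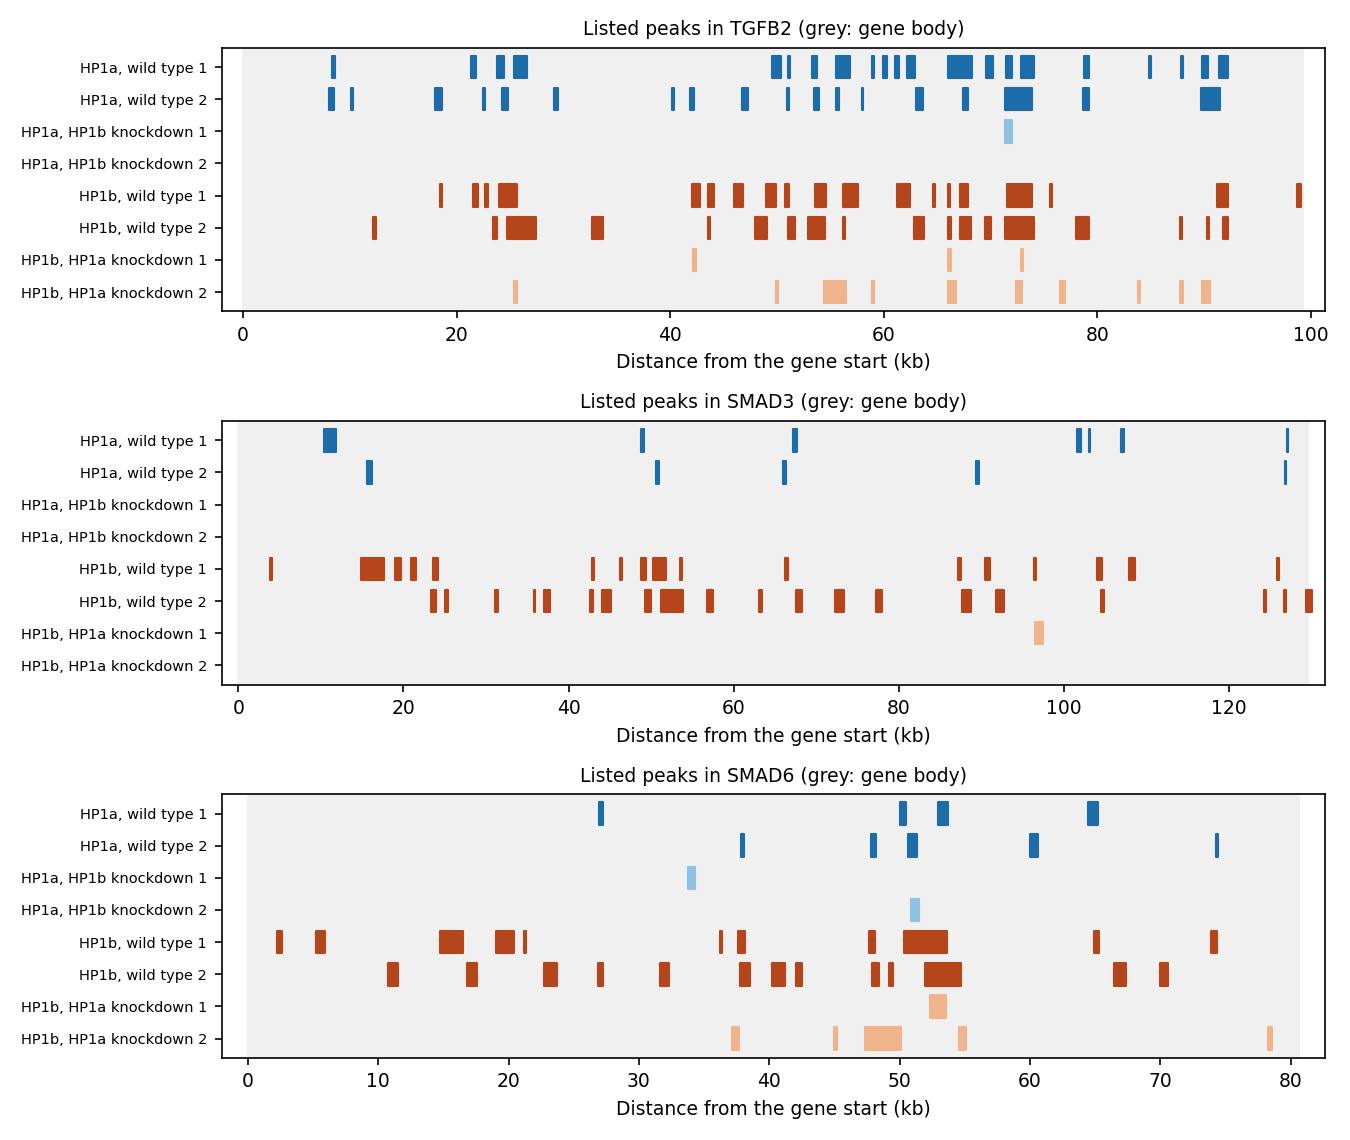
Listed peaks along TGFB2, SMAD3 and SMAD6 in each of the 8 libraries, with distance from the gene start in kb on the horizontal axis. The SMAD3 rows of WT HP1b hold 17 and 20 peaks against 1 and 0 for HP1b in the HP1a knockdown, and the regions of TGFB2 listed in both WT HP1a libraries were centred between 8.42 and 91.5 kb from its start.

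Counted in bases, 46.8 and 50.5% of WT HP1a coverage in the 10 genes lay inside peaks of either WT HP1b library, which covered 14.2% of the gene windows. TGFB2 held 14209 of 28154 and 10830 of 23680 of these WT HP1a bases, and the WT HP1b libraries covered 14.7 and 15.7% of it. The 14.2% is therefore not the share expected for these bases, and no share over all genes is given. Peaks were not strong in any group. The median deposited fold in the 10 genes was 3.14 and 3.18 in WT HP1a, where all peaks had 3.29 and 3.26, and 2.81 and 2.93 in WT HP1b, where all had 2.93 and 3.03. HP1b in the HP1a knockdown had 2.62 and 2.60, against 2.79 in both lists as a whole. The highest fold of each gene in a WT library was 4.19 in SMAD6 (chr15:66766655-66767457, HP1a), 4.02 in BMP7 (HP1a), 3.98 in SMAD3 (HP1b), 3.88 in TGFB2 (HP1a), 3.64 in TGFBR1 (HP1b), 3.51 in TGFBR2 (HP1a), 3.51 in SMAD7 (HP1b), 3.40 in TGFBI (HP1a), 3.04 in TGFB1 (HP1b) and 2.88 in TGFB3 (HP1b). None of the HP1a peaks among these was met by the other WT HP1a library. Of the HP1b peaks among them, only that in TGFBR1 was met by the other WT HP1b library.

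Within 5 kb of the start, the 9 genes with a known strand were covered at 0.308 and 1.49% by WT HP1a, 0 and 0% by HP1a in the knockdown, 5.46 and 3.04% by WT HP1b, and 0.558 and 0.725% by HP1b in the knockdown. All genes with a known strand stood at 1.85 and 1.42%, 0.288 and 0.254%, 3.60 and 4.05%, and 1.94 and 3.57%. The WT HP1b peak nearest a start was centred 0.870 kb upstream of TGFBR1. In the TGFB2 window the WT peak centre nearest the start was 8.26 kb into the gene for HP1a and 12.3 kb for HP1b. Peaks more than 1 kb upstream did not enter this search.

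By coverage over all 8 libraries, the genes most like TGFB2 were KCNN3 (a potassium channel gene, distance 1.01), PPFIA4 (distance 1.35) and PCDHGC3 (a clustered protocadherin gene, distance 1.36), where the distance is Euclidean on log2 of percent covered plus 0.1. KCNN3 was covered at 14.6 and 8.58% by WT HP1a, 12.5 and 16.7% by WT HP1b, 0.529 and 0% by HP1a in the knockdown and 1.59 and 5.34% by HP1b in the knockdown.

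Of 90 other genes of the pathway, 48 could be tested for HP1a in the HP1b knockdown, of which 13 passed as lower and none as higher, and all 13 were listed at 0 in both knockdown libraries. That share lies close to the background of 26.9%, and these genes too entered the fit through WT alone. None of the 48 passed with the same number of peaks, with peaks of −log10 p of at least 4, with no filter, with a pseudocount multiplied by 4 or without either WT library. There were 4 with the −log10 q limit, 30 without scaling, and 8 with 3 rises when either knockdown library was left out. Intracellular regulators gave 5 of 10 (SMURF1, SMURF2, TGIF1, NEDD4L and PMEPA1), the other SMADs 2 of 5 (SMAD1 and SMAD2), other ligands 2 of 10 (GDF5 and GDF7), ligand traps and latency proteins 2 of 12 (LEFTY2 and CHRDL1) and other receptors 1 of 10 (AMHR2). NEDD4L, a ubiquitin ligase that acts on SMADs, went from 2.84 and 1.73% to 0 and 0% (log2 −4.31, SE 0.53, adjusted p = 0.0308). GDF7 went from 3.91 and 3.54% to 0 and 0%, and GDF5 from 3.75 and 4.16% to 0 and 0%, both ligands of the BMP branch. LEFTY2, a secreted antagonist of NODAL, was the most covered of the tested genes, at 27.6 and 11.8% in WT HP1a.

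For HP1b in the HP1a knockdown, 0 of 58 tested pathway genes passed, with 13 lower and 2 higher at an unadjusted p under 0.05, near the shares of 19.8 and 4.98% over all genes. Without knockdown replicate 2, 7 passed as lower. The most covered were INHBC and LEFTY2. INHBC, an inhibin subunit, was at 12.0 and 12.2% in WT and 11.3 and 11.7% in the knockdown. LEFTY2 went from 20.04 and 24.3% to 0 and 0% (log2 −2.28, SE 0.54, adjusted p = 0.147). It was among the 13 and, at 0 in both knockdown libraries, could only be lower, so that count is not read as support. In WT cells 0 of 66 differed between HP1b and HP1a, and LEFTY2 was the most covered.

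Other genes overlap some of these windows: TGFB2-AS1 and TGFB2-OT1, BMP7-AS1 and SMAD3-AS1 lie in those of their namesakes. The protein-coding LOC105377015 overlaps the start of TGFBR2, and the protein-coding B9D2 reaches into the flank of TGFB1. LOC112268270 overlaps BMP7, and the pseudogenes RNA5SP290 and KLHL25P1 lie in TGFBR1 and TGFBR2. A peak there cannot be assigned to either gene.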

How the data were processed

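The deposited files are broad peak lists of 8 ChIP-seq libraries. Tools named in the submitters' processing notes are MACS3, Bowtie2, Trimmomatic and SAMtools, with the build hg38; their versions, settings and inputs are not given in the sources used. The deposited columns used were position, fold enrichment (a ratio), −log10 p and −log10 q; the deposited score, 10 times −log10 q, was not analysed. Depth is unknown, so no interval or floor was set.

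Peaks on chromosomes 1 to 22 and X (99.1 to 99.7% of each list) were merged within a library. Relative coverage was peak-covered bases in a gene with 1 kb each side per Mb of all peak-covered bases. Log2 of it plus a pseudocount (the 10th percentile of values above 0) was fitted with limma 3.58.1 in R 4.3.3 (variance trend) over all genes with a peak in at least 2 libraries, with Benjamini-Hochberg adjustment over all of them and a threshold of 0.05. Tested on simulated lists, the fit gave the right signs, but with lists as unequal in length as the HP1a ones it also called unchanged genes.

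All 10 genes are named in every comparison. Of the pathway genes, those past the threshold were named, or the 4 of lowest p where over 6 passed, with the 2 most covered. Some pathway genes that this rule names are not reported here. The genes, lists and rules were chosen with earlier results of these data known. RefSeq (GRCh38.p14) gave gene bounds and promoters. Alternatives were the same number of peaks, stricter peaks, a 4-fold pseudocount, a 2 kb flank, no scaling, no filter, a replicate block, a joint fit of all libraries, flanks of 100 kb and each library left out.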

Additional observations from a re-analysis of the deposited data

How the results depend on the processing

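Values for single genes are log2 changes. Of the alternatives for single genes, 374 kept direction and side of the threshold, 20 newly passed it, 13 no longer did and 38 turned in sign. The cause of these changes was not tested. For HP1a in the HP1b knockdown, 3 of the 10 genes passed as lower, as did 2385 of all genes, while 151 passed as higher. Taking the same number of peaks (19092), peaks of −log10 p of at least 4, no filter or a pseudocount multiplied by 4 gave 0 genes for all 3 counts. Peaks of −log10 q of at least 2 gave 1, 808 and 4, and no scaling gave 5, 4822 and 58. A single fit of all libraries gave 364 rises. SMAD6 turned to −1.56 without scaling.

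Same-numbered replicates did not deviate together (correlations of 0.023, 0.045 and −0.014 over genes), so the numbers are not taken as pairs. With the replicate block, HP1a gave 0 of the 10 genes, 0 of the 48 pathway genes, 0 falls and 24 rises over all genes. HP1b in the HP1a knockdown gave 2 of the 10 (TGFB2 and SMAD3), 287 falls and 122 rises, and the WT comparison 2 and 2 over all genes.

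For HP1b in the HP1a knockdown, the same number of peaks gave 1 fall and 12 rises over all genes and turned TGFBR1 to 0.85. Peaks of −log10 p of at least 4 turned TGFBR1 to 0.0017 and SMAD6 to 0.27. In the WT comparison, no scaling turned TGFB2 to 0.29, BMP7 to 0.76, TGFBR1 to 0.64, TGFBR2 to 0.089 and SMAD7 to 0.42. TGFBR1 also turned to 0.15 with a 2 kb flank and to 0.011 with no filter. For the difference between the knockdown effects, no filter gave 232 genes below and 506 above 0, and no scaling gave 2 above. There TGFB3 turned to 0.54 with a 2 kb flank. TGFBR1 turned to −0.18 with the same number of peaks and −0.25 with the −log10 q limit. No scaling turned TGFBR2 to −0.10, SMAD7 to −0.53 and SMAD3 to −1.35. SMAD3 also turned to −0.56 with the same number of peaks, −1.69 with the −log10 p limit, −0.47 with the −log10 q limit and −0.41 with the larger pseudocount, and SMAD6 to 2.65 with the −log10 q limit.

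The ratio of knockdown to WT in the 10 genes' share of peak bases was 0.499 for HP1a and 0.326 for HP1b with the −log10 p limit, and 0 for HP1a with the −log10 q limit. HP1b over HP1a in WT, 0.862, became 0.990, 0.441 and, with the same number of peaks, 0.703. For HP1a the genes lost and kept, 3 and 1, became 1 and 0 with the −log10 q limit or the same number of peaks, and 0 were kept with the −log10 p limit. For HP1b, 4 and 4 became 2 and 1 with the −log10 p limit and 0 and 1 with the −log10 q limit. With 100 kb flanks, 3 genes in WT HP1a and 3 in the HP1b knockdown, not 6 and 8, were below their flank, and 0 in the latter above it.

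Leaving out each library in turn gave, for HP1a, 0 to 3 of the 10 genes, 1 to 2063 falls and 25 to 1034 rises, with 3 to 5 of the 10 lost and 1 to 2 kept. For HP1b it gave 1 to 5 of the 10, 75 to 1794 falls and 70 to 291 rises, and TGFB3 ranged from −1.12 to 0.50. The WT comparison gave 0 to 1 of the 10 in each direction, with 1 to 197 genes lower and 1 to 256 higher. There BMP7 ranged from −0.90 to 0.10, TGFBR1 from −1.94 to 1.96, SMAD7 from −1.47 to 1.09 and TGFBI from −0.55 to 3.05. The difference between knockdown effects gave 0 to 249 genes below and 0 to 792 above 0, with 0 to 1 of the 10. In it TGFB2 ranged from −0.83 to 3.73, TGFB3 from −0.99 to 0.46, TGFBR1 from −0.60 to 3.27, SMAD3 from −0.93 to 0.97, SMAD7 from −1.11 to 1.48 and TGFBI from −3.09 to 0.55. Single values within these ranges that turned in sign were TGFBR1 at 0.15 and SMAD7 at 0.40 without WT HP1b replicate 2, SMAD7 at −0.44 in the difference without that library, and SMAD3 at −0.29 and −0.20.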
